A study of Canis lupus familiaris with 45 samples.

Results

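Subcutaneous fat taken at week 8 was compared between dogs fed freely and dogs held at their body weight. The comparison used the 9 of the 45 arrays in the series that were labelled week 8: 5 from the ad libitum group (dogs 2, 5, 6, 7 and 8) and 4 from the control group (dogs 1, 3, 4 and 9). All were intact female beagles, 4 years old, assigned to a feeding group at random. Both groups received the same commercial food, Purina Pro Plan Performance, and were biopsied after fasting overnight. The groups differed in how much was offered: controls were fed to keep their starting body weight and the ad libitum dogs ate as much as they wanted. Each array held the total RNA of 1 dog, and the same dogs were also sampled at weeks 0, 4, 12 and 24. Values are the deposited expression values of single probe sets, read as log2, so that a difference of 1 is a doubling.

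White fat stores surplus energy as triglyceride in adipocytes and breaks it down again in fasting. Its adipocytes secrete hormones such as leptin, which reports the size of the fat stores to the brain, and their growth under overfeeding needs changes in the surrounding matrix and vessels. Biopsies of fat also hold immune, vascular and stromal cells, and can include pieces of the tissue next to it. In such bulk samples fewer cells of a type and less RNA per cell cannot be told apart.

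The labelled tissue was borne out by its markers. The mean over 13 adipocyte markers lay between 12.4 and 13.4 on the 9 arrays, and ADIPOQ, the gene of adiponectin, between 15.58 and 15.96. Skeletal muscle transcripts stood out on 2 arrays. The mean over 22 muscle markers was 14.0 in control dog 4 and 10.8 in ad libitum dog 7, against 3.73 to 4.27 on the other 7 arrays. A further pair of arrays went against their labels. Over 100 probe sets that separate the dogs, the array labelled ad libitum dog 5 correlated best with the other arrays of dog 9 (r = 0.962, against 0.578 for dog 5), and the array labelled control dog 9 correlated best with those of dog 5 (r = 0.944, against 0.615 for dog 9). The other 7 arrays correlated best with their own dog (r from 0.954 to 0.992). The comparison was therefore made as labelled (5 against 4 arrays) and again without these 2 arrays (4 against 3). A value that stands alone is as labelled. The labels were not changed.

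As labelled, 66 probe sets were higher and 257 lower in the ad libitum dogs at an adjusted p under 0.05, which is 0.291% and 1.13% of the 22690 tested (1.42% together). Those with a single gene symbol named 48 genes higher and 136 lower. Another scaling, with every array centred on its median, gave 199 higher and 426 lower. Without the 2 arrays 33 probe sets were higher and 17 lower (0.145% and 0.0749%, or 0.22% together), and 27 probe sets passed both ways, which is 8.36% of the first set and 54% of the second. All 323 probe sets of the first set kept their sign without the 2 arrays. This is a description and no support, since mostly the same arrays chose them. At an unadjusted p under 0.05 there were 5669 and 3228 probe sets, or 25% and 14.2% of those tested. The number passing depended on every dog. Leaving out control dog 3, 4 or 9 or ad libitum dog 2 or 6 left 0 probe sets, and leaving out dog 5 left 12. The number rose to 1402 with dog 8 left out, to 1523 with dog 1 left out, to 2067 with dog 7 left out and to 1437 when the muscle-bearing arrays were dropped. With the week-8 arrays fitted alone, none passed by limma's test (4849 at an unadjusted p under 0.05 with the batch term, 4173 without it).

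**Figure D1:**
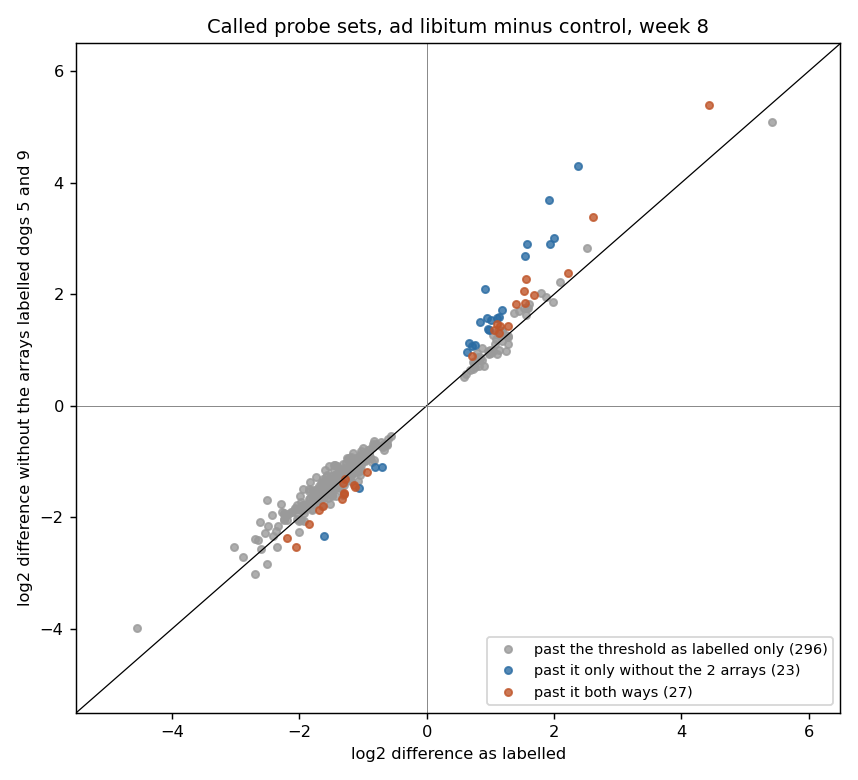
Log2 difference between ad libitum and control dogs at week 8 for every probe set past the threshold as labelled or without the arrays labelled dogs 5 and 9; each point is 1 probe set, the x axis is the difference as labelled and the y axis the difference without the 2 arrays. All points lie in the lower left or the upper right, and AZGP1 is the highest of the 27 that passed both ways, at 4.44 and 5.40.

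AZGP1 had the largest difference of any named gene. It encodes zinc-alpha2-glycoprotein, a secreted adipokine linked to fat breakdown. Its level was 6.72 in ad libitum dog 2, 7.74 in dog 6, 7.57 in dog 7 and 9.21 in dog 8, but 2.35 on the array labelled dog 5. The controls were at 2.35, 2.37, 2.35 and 2.47 in dogs 1, 3, 4 and 9. Thus 4 of the ad libitum arrays were far above every control, and the fifth was at the control level, near the bottom of the scale, where a fold has no meaning. The difference was 4.44 as labelled (SE 0.754, adjusted p = 0.0144) and 5.40 without the 2 arrays (SE 0.626, adjusted p = 1.85e-05). Over 33 alternative fits its adjusted p ran from 9.53e-07 to 0.231 and passed in 21. Leaving out every array of control dog 3, 4 or 9, or of ad libitum dog 2 or 6, gave adjusted p from 0.0866 to 0.191. Within the 4 labelled batches of week 8 the difference was 6.86, 2.19, 5.21 and 5.27 in batches 1, 3, 4 and 5. In batch 1 dog 8 was set against dog 4, and in batch 3 dogs 2 and 5 against dog 1. In batch 4 it was dog 7 against dog 3, and in batch 5 dog 6 against the array labelled dog 9. Without the array labelled dog 5 the batch 3 difference was 4.37.

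The other AZGP1 probe set tested had a difference of 0.76, which did not pass. In the same dogs at other times the difference was 0.19 at week 0, 6.22 at week 4, 4.90 at week 12 and -0.81 at week 24. Dog 5 itself was at 7.88 at week 4 and 6.99 at week 12, while dog 9 was at 2.35 and 2.42 at those weeks. The array labelled dog 5 at week 8, with 2.35, is thus like those of dog 9, but the array labelled dog 9, which otherwise resembled dog 5, was also low, at 2.47. AZGP1 was the 1 probe set whose change from week 0 differed between the groups without the 2 arrays (5.38, SE 0.854, adjusted p = 0.0109). As labelled that change was 4.25 (SE 1.07, adjusted p = 0.516).

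CSTA, which encodes cystatin A, an inhibitor of cysteine proteases of skin and other epithelia, was higher too. Its level was 5.80, 7.58, 6.65 and 8.33 in ad libitum dogs 2, 6, 7 and 8 and 3.75 on the array labelled dog 5, against 3.64, 3.64, 3.79 and 4.68 in control dogs 1, 3, 4 and 9. As with AZGP1, the array labelled dog 5 lay among the controls. The groups separated without the pair, as for 8.97% of all probe sets in this direction. Control dogs 1, 3 and 4 were under 4, the level asked of a tested probe set, so the size of the difference rests on values near background. It was 2.61 (SE 0.612, adjusted p = 0.0432), and 3.39 without the 2 arrays (SE 0.627, adjusted p = 0.0142). Over the alternatives the adjusted p ran from 0.00435 to 0.231. At weeks 4, 12 and 24 the CSTA difference was 0.52, 0.76 and 1.64, none past the threshold. The week-8 difference did not pass against the mean of weeks 4 and 12 (adjusted p = 0.0654).

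Both genes are also made by epithelia, so the markers of those cells were read beside them. Of 15 keratinocyte markers on the array 11 were under 4 on all 9 arrays, among them KRT1, KRT10, IVL and TP63. The 4 that were tested, CSTA included, all had differences above 0. SBSN, a secreted protein of the upper epidermis, reached 8.20 on 1 array, with means of 4.97 in ad libitum dogs and 2.72 in controls. Its difference was 2.36 (SE 0.985, adjusted p = 0.139), and 1.23 without the 2 arrays (adjusted p = 0.648). The desmosomal protein DSP stood at 0.34 and PERP at 0.38. The mean over the 15 was 2.84 to 3.50 in ad libitum dogs and 2.64 to 2.89 in controls. Of 18 markers of mammary and other glands 11 were likewise under 4, including KRT8, KRT18, CDH1 and the milk protein genes CSN2 and LALBA. The gland mean, which includes AZGP1, was 3.93 to 4.49 in ad libitum dogs and 3.28 to 3.82 in controls. Of the 7 gland markers tested 6 were above 0, AZGP1 included, with a median of 2.00 as labelled and 2.22 without the 2 arrays. AZGP1, at most 2.47 in week-8 controls, and CSTA reached the level for testing mainly on ad libitum arrays. They are also the genes asked about, so these signs and medians are a description and no support. CLDN4, a tight junction protein of epithelia, stood at 2.36 (SE 0.690, adjusted p = 0.0573) and at 3.28 without the 2 arrays (adjusted p = 0.0530). PRLR, the prolactin receptor, stood at 2.00 (adjusted p = 0.0702) and the keratin KRT7 at 1.19 (adjusted p = 0.260). LTF stood at 2.37 and ESR1, the oestrogen receptor, at 0.96, while EPCAM stood at -0.68 (SE 1.36). The part of these cells in the AZGP1 and CSTA differences was not tested.

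BMP6, a secreted bone morphogenetic protein that acts through SMAD signalling, was higher. It stood at 8.93, 7.64, 9.99, 8.25 and 10.86 in ad libitum dogs 2, 5, 6, 7 and 8 and at 7.38, 5.91, 7.73 and 7.20 in control dogs 1, 3, 4 and 9. The groups met at 1 point, where the array labelled dog 5 was just under control dog 4. The difference was 2.22 (SE 0.432, 4.66-fold, adjusted p = 0.0330), and 2.39 without the 2 arrays (SE 0.492, adjusted p = 0.0272), and the adjusted p ran from 0.00168 to 0.231 over the alternatives. It was 0.43 at week 4, -0.48 at week 12 and 2.26 at week 24. Of the 25 genes tested for BMP and TGF-beta signalling BMP6 was the 1 that passed, and SMURF1, a ubiquitin ligase that removes SMADs and BMP receptors, was higher by 1.59 (SE 0.397, adjusted p = 0.0455; 1.76, adjusted p = 0.0838 without the 2 arrays). The list's median difference was -0.11. Over all 9113 genes at their brightest probe set the median was 0.10, 3808 were below 0, 0.34% were called higher and 1.25% lower. Without the 2 arrays that median was 0.03, and 14 genes were called higher and 6 lower.

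LEP, the gene of leptin, did not pass in either form. Its level was 12.88, 13.36, 12.62 and 12.91 in ad libitum dogs 2, 6, 7 and 8 and 10.45 on the array labelled dog 5, and 10.39, 7.96 and 10.69 in control dogs 1, 3 and 4 and 12.57 on the array labelled dog 9. The 2 arrays in doubt each sat at the level of the opposite group, and without them the groups did not overlap, as for 8.97% of all probe sets in this direction (16.3% in both). The difference was 2.07 (SE 0.720, adjusted p = 0.0883), and 3.02 without them (SE 0.779, adjusted p = 0.0838). It passed in 1 of 33 alternatives.

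**Figure D2:**
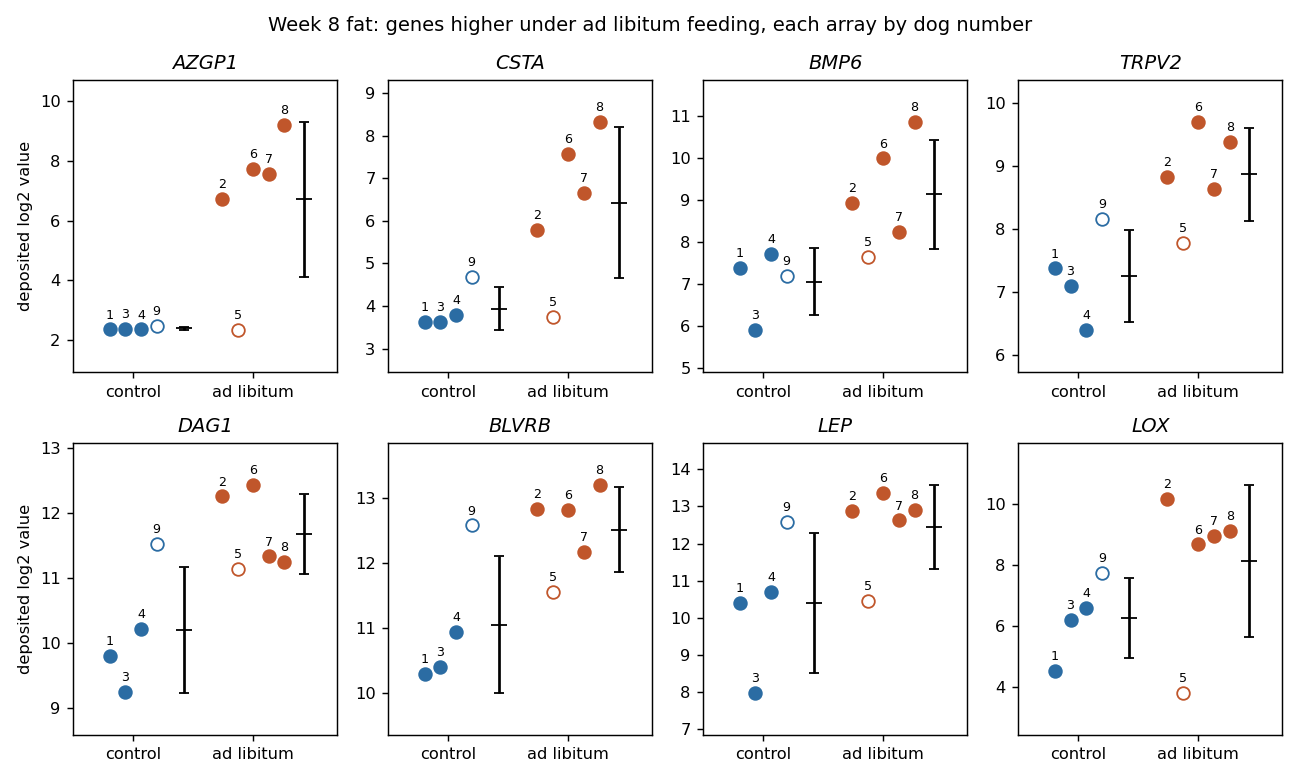
Deposited log2 values at week 8 of 8 genes with higher means under ad libitum feeding; each circle is 1 array with its dog number, open circles are the arrays labelled dogs 5 and 9, and the bar beside each group is the mean with its SD over all arrays of that group (4 control, 5 ad libitum). In AZGP1, CSTA, LEP and LOX the open ad libitum circle lies at or near the control level.

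Other genes past the threshold in both forms had roles in the membrane and matrix. TRPV2, a cation channel that responds to stretch, was at 8.83, 7.78, 9.70, 8.63 and 9.38 in ad libitum dogs 2, 5, 6, 7 and 8, against 7.38, 7.10, 6.40 and 8.15 in control dogs 1, 3, 4 and 9. The groups crossed through the arrays labelled dogs 5 and 9 alone. The difference was 1.68 (SE 0.383, adjusted p = 0.0432), and 1.98 without them (adjusted p = 0.0395). DAG1, the dystroglycan that anchors cells to laminin, was higher by 1.54 (SE 0.350, adjusted p = 0.0432), with 3 of 3 probe sets past the threshold, and by 1.85 without the 2 arrays (adjusted p = 0.0379). MATN2, a filamentous matrix protein, was higher by 1.56 (SE 0.395, adjusted p = 0.0455), with 1 of 3 probe sets past the threshold. It was higher by 2.27 without them (adjusted p = 0.00456), when 3 of its 3 probe sets passed.

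Enzymes and traffic proteins made up the rest of the genes named as higher in both forms. BLVRB, a reductase of biliverdin and flavins, was higher by 1.53 (SE 0.345, adjusted p = 0.0432) and by 2.07 without the pair (adjusted p = 0.0118). COPZ2, a subunit of the coat of Golgi vesicles, was higher by 1.15 (SE 0.273, adjusted p = 0.0432) and 1.43, with 2 of 2 probe sets past the threshold in both. KDELR3, which returns proteins to the endoplasmic reticulum, was higher by 1.05 (SE 0.248, adjusted p = 0.0432) and 1.35, and the lipase-family enzyme ABHD4 by 1.11 (SE 0.292, adjusted p = 0.0481) and 1.46. Each of these 4 was past the threshold without the pair as well. KDELR3 passed at 1 of 2 probe sets and ABHD4 at 1 of 3.

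Further genes passed as labelled only. TMEM132C, a membrane protein, was at 8.36, 5.33, 6.65, 6.45 and 6.13 in ad libitum dogs 2, 5, 6, 7 and 8 and at 4.94, 3.81, 3.65 and 3.88 in the controls, with no overlap, as in 1.64% of all probe sets in this direction (3.76% in both). Its difference was 2.52 (SE 0.661, adjusted p = 0.0481) and 2.83 without the 2 arrays (adjusted p = 0.0903). FAM118A (2.10), TMEM218 (1.79), the matrix protein PAPLN (1.61) and the adhesion receptor ADGRE5, also called CD97 (1.57), were of this kind, with adjusted p between 0.0432 and 0.0484. TMEM132C and TMEM218 passed at 1 of 2 probe sets each and ADGRE5 at 1 of 3. AKT1, the kinase that carries the insulin signal, was higher by 0.98 (SE 0.252, adjusted p = 0.0464), and by 0.95 without the 2 arrays (adjusted p = 0.136). It was the 1 of 17 insulin signalling genes to pass, beside 0.34% of all genes called higher; 10 of the 17 were below 0 and the median was -0.05. The largest difference of all, 5.43, belonged to a probe set with no single gene symbol (adjusted p = 0.0432; 5.10, adjusted p = 0.0964 without the 2 arrays).

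Several genes passed only without the 2 arrays. LTF, the gene of lactoferrin, an iron-binding protein of secretions and neutrophils, was at 7.73, 6.80, 8.32 and 10.22 in ad libitum dogs 2, 6, 7 and 8 and at 5.65, 3.07 and 3.80 in control dogs 1, 3 and 4. The 2 arrays left out lay the other way round, at 3.31 for the one labelled dog 5 and 6.99 for the one labelled dog 9. The difference was 4.30 (SE 0.944, adjusted p = 0.0396), against 2.37 as labelled (adjusted p = 0.150). LTF passed at 1 of 2 probe sets, and the other stood at 1.99 without the 2 arrays.

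LOX, the lysyl oxidase that cross-links collagen, followed the same order. It was at 10.14, 8.66, 8.94 and 9.11 in the 4 ad libitum dogs and 4.52, 6.20 and 6.58 in the 3 controls, with 3.79 on the array labelled dog 5 and 7.72 on that labelled dog 9. The difference was 3.70 (SE 0.677, adjusted p = 0.0136), against 1.93 as labelled (adjusted p = 0.155). LOX was the 1 of 22 matrix genes past the threshold in this form, beside 0.219% of all genes. GPLD1, a phospholipase that frees lipid-anchored proteins (2.90, adjusted p = 0.0253, with 1 of 3 probe sets), EPHX1, an epoxide hydrolase (1.71, adjusted p = 0.0272, with 3 of 3 probe sets), and the basement membrane protein NID1 (1.35, adjusted p = 0.0306, with 1 of 2 probe sets) were also higher. The lowest GPLD1 probe set stood at 0.65 without the 2 arrays. C7, a complement component (2.10, adjusted p = 0.0272), and GPAM, which starts triglyceride assembly (1.51, adjusted p = 0.0272), passed at 1 of 2 probe sets each.

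ACACA, the acetyl-CoA carboxylase that commits carbon to fatty acid synthesis, was lower. It was at 5.72, 5.18, 5.75 and 5.69 in ad libitum dogs 2, 6, 7 and 8 and at 7.91, 8.62 and 7.08 in control dogs 1, 3 and 4, with 7.44 on the array labelled dog 5 and 6.73 on that labelled dog 9. The 4 ad libitum arrays kept within a narrow range below every control, as did 7.32% of all probe sets without the pair. The difference was -2.33 (SE 0.468, adjusted p = 0.0254), against -1.60 as labelled (adjusted p = 0.0568). This is 1 of 4 ACACA probe sets, and the brightest was at -0.96 as labelled and -1.07 without the 2 arrays, neither past the threshold. At week 4 the difference was -2.37, at week 12 -1.32 and at week 24 0.73, in the other direction.

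The 2 arrays were not in the fit that chose the probe sets passing without them, though they counted toward the level filter. Their position at those probe sets was therefore counted. Of the 33 probe sets higher, the array labelled control dog 9 was nearer to the mean of the 4 ad libitum arrays in 30, and the array labelled ad libitum dog 5 was nearer to the mean of the 3 controls in 23. Of the 17 lower, these counts were 14 and 6. AZGP1 is among the exceptions for the array labelled dog 9.

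The named genes lower in ad libitum dogs included members of the lists for DNA repair, the ubiquitin system, the centrosome, chromatin and membrane traffic. Those described up to the plot of lower genes passed as labelled only, except NSD1 and SETD2. They kept their sign without the 2 arrays, with adjusted p from 0.0684 for RPL6 to 0.249 for ARFGEF1. Several passed at 1 of their probe sets only: PCM1 and NAA15 at 1 of 4, PRPF4B at 1 of 5 and USP25 at 1 of 2. All probe sets of these 4 genes were below 0 as labelled. Those nearest to 0 stood at -0.10 for PCM1, -1.28 for NAA15, -0.05 for PRPF4B and -0.62 for USP25. REV3L, the catalytic subunit of a DNA polymerase that copies past damage, was at 5.50, 6.05, 3.55, 7.77 and 6.83 in ad libitum dogs 2, 5, 6, 7 and 8 and at 8.11, 9.22, 9.74 and 8.34 in control dogs 1, 3, 4 and 9. Each ad libitum array was below each control, as for 2.12% of all probe sets, and dog 6 was lowest. The difference was -3.03 (SE 0.722, adjusted p = 0.0432), with 2 of 2 probe sets past the threshold, and -2.53 without the 2 arrays (adjusted p = 0.158). MSH6, a mismatch repair protein, stood lower, at -1.69 (SE 0.428, adjusted p = 0.0455; -1.44, adjusted p = 0.170 without the 2 arrays). These were the 2 of 27 DNA repair genes that passed, beside 1.25% of all genes called lower. Of the 27, 21 were below 0, as were 3808 of all 9113 genes, and the median was -0.71 as labelled and -0.64 without the 2 arrays, when none passed. The brightest REV3L probe set, which stands for the gene in that count, was at -2.20.

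Of 29 deubiquitinases 3 were lower (USP25, USP34 and USP48) and none higher, with a median of -0.79. None of the 29 passed without the 2 arrays, when their median was -0.47. Over all genes 1.25% were called lower as labelled, and the median was 0.10. USP25, which removes ubiquitin from substrates of the quality control of the endoplasmic reticulum, was at 3.89, 5.59, 2.74, 6.52 and 4.62 in ad libitum dogs 2, 5, 6, 7 and 8, against 6.89, 6.78, 8.60 and 6.24 in control dogs 1, 3, 4 and 9. Dog 7 alone was above the lowest control. The difference was -2.60 (SE 0.628, adjusted p = 0.0432; -2.56, adjusted p = 0.118 without the 2 arrays). Of 33 ubiquitin ligases 4 were lower (MYCBP2, TRIP12, UBR2 and HERC2) and SMURF1 was higher, with a median of -0.79. With the pair left out none passed and the median was -0.69. MYCBP2, a very large ligase studied in axons, stood lower, at -1.68 (SE 0.405, adjusted p = 0.0432), and at -1.51 (adjusted p = 0.141) without the 2 arrays. Its groups did not overlap, as for 2.12% of all probe sets in this direction.

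Of 28 genes of the centrosome and of microtubule nucleation 5 were lower, beside 1.25% of all genes, with a median of -0.92 against 0.10 over all genes. They were TUBGCP5 (-2.43), a subunit of the gamma-tubulin ring, PCM1 (-1.87) of the centriolar satellites, CEP192 (-1.65), a scaffold of the pericentriolar material, the anchoring protein AKAP9 (-1.19) and the microtubule polymerase CKAP5 (-0.86). Their adjusted p lay between 0.0432 and 0.0499. Without the 2 arrays the first 4 stood at -1.96, -1.76, -1.58 and -1.35, none of the 5 passed and the list's median was -0.57.

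Chromatin and RNA genes were part of the same set. Of 44 chromatin genes, each at its brightest probe set, 3 were lower (ARID4B, KDM5A and NSD1), 38 were below 0 and the median was -0.63. Of all 9113 genes 1.25% were called lower and 3808 were below 0. At these probe sets NSD1 alone of the list passed without the 2 arrays, when the median was -0.44. At another of 3 probe sets BPTF passed as labelled and SETD2 passed in both forms, and both are in this list. BPTF, the largest subunit of a nucleosome remodeller, was at 4.52, 5.12, 3.50, 6.66 and 6.43 in ad libitum dogs 2, 5, 6, 7 and 8 and at 7.42, 7.72, 7.59 and 6.81 in the controls. The groups did not overlap, as for 2.12% of all probe sets in this direction. The difference was -2.23 (SE 0.527, adjusted p = 0.0432; -1.97, adjusted p = 0.140 without the 2 arrays). Of 38 splicing genes PRPF39 passed (-2.07, SE 0.552, adjusted p = 0.0493), and the splicing regulators SCAF11 (-2.33) and PRPF4B (-1.84) were lower too. Of 36 genes of nuclear transport the export receptors XPO1 (-1.39) and XPO4 (-2.41) were lower. They stood at -1.27 and -2.33 without the 2 arrays (adjusted p = 0.141 and 0.143). XPO4 was at 9.98 in control dog 4, far above the next control at 6.09, and the 2 groups otherwise met.

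A few genes of membrane traffic, autophagy and protein synthesis were lower. The vesicle tether TRIP11 (-1.75) and ARFGEF1 (-1.46), which activates the Golgi GTPases, were the 2 of 41 traffic genes past the threshold, and 38 of the 41 were below 0. The median of the 41 was -0.72 as labelled and -0.34 without the 2 arrays, when none passed. Of all 9113 genes 1.25% were called lower and 3808 were below 0 as labelled. The endosomal proteins VPS50 (-2.28) and WASHC4 (-2.36) were lower as well, and stood at -1.91 and -2.25 without the 2 arrays (adjusted p = 0.156 and 0.154). ATG2B (-1.44), a lipid transfer protein of the autophagosome, and PIK3C3 (-1.56), the lipid kinase that starts autophagosomes, were the 2 of 22 autophagy genes that passed, while 11 were above and 11 below 0 and the median was -0.01. NAA15, the ribosome-bound subunit of an N-terminal acetyltransferase, stood lower, at -2.49 (SE 0.651, adjusted p = 0.0481; -2.16, adjusted p = 0.183 without the 2 arrays), the 1 of 12 in its list, whose median was 0.11. EPRS1, which charges tRNAs with glutamate and proline, stood lower, at -2.28, with 3 of 4 probe sets past the threshold, and at -1.75 without the 2 arrays (adjusted p = 0.220). RPL6, a ribosomal protein, was lower at 1 of 10 probe sets (-0.67, adjusted p = 0.0452), and its brightest was at -0.25. None of 33 ribosomal protein genes at their brightest probe set passed, and their median was -0.02.

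**Figure D3:**
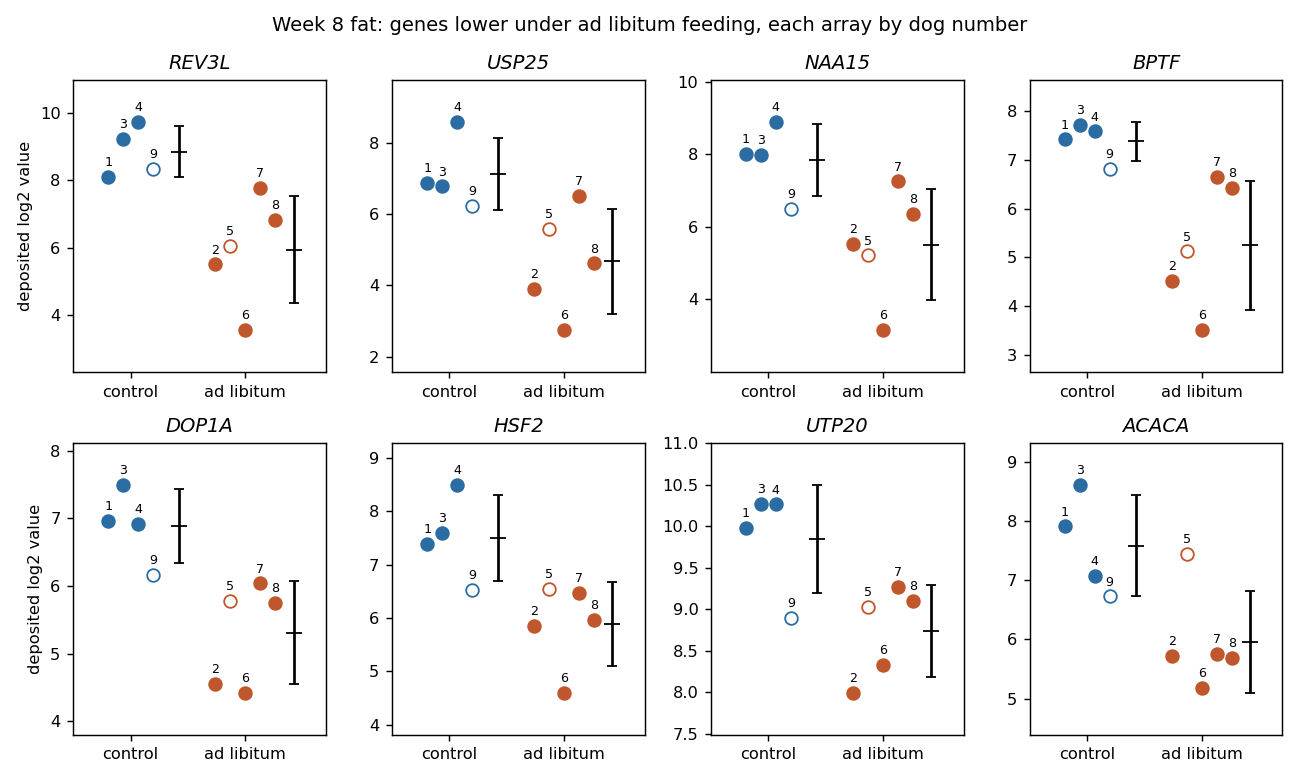
Deposited log2 values at week 8 of 8 genes with lower means under ad libitum feeding, with 1 circle per array and its dog number; open circles are the arrays labelled dogs 5 and 9, and bars are the mean with its SD (4 control, 5 ad libitum). REV3L, BPTF and DOP1A show no overlap, and in ACACA the open ad libitum circle, at 7.44, lies among the controls.

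A smaller group was lower in both forms. DOP1A, a protein of Golgi and endosome traffic, was at 4.56, 5.77, 4.42, 6.04 and 5.75 in ad libitum dogs 2, 5, 6, 7 and 8, against 6.97, 7.50, 6.92 and 6.16 in control dogs 1, 3, 4 and 9. All ad libitum arrays were below all controls, as for 2.12% of all probe sets. The difference was -1.62 (SE 0.320, adjusted p = 0.0330), and -1.79 without the 2 arrays (adjusted p = 0.0306). HSF2, a heat shock transcription factor, stood lower, at -1.69 (SE 0.323, adjusted p = 0.0326) and -1.87 (adjusted p = 0.0254), with 2 of 3 probe sets past the threshold both times. EMSY, a partner of BRCA2 (-1.29 and -1.56), the histone methyltransferases NSD1 (-1.13 and -1.45) and SETD2 (-0.93 and -1.18), and UTP20, which processes ribosomal RNA (-1.14 and -1.42), complete the named genes here. EMSY, SETD2 and UTP20 passed at 1 of 3 probe sets each. NSD1 passed at 1 of 2, and the other stood at -0.03 as labelled.

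The 257 probe sets called lower were also read as a set, whose week-8 values are a description, since they chose it. Their mean was 7.09, 7.29, 6.52, 8.23 and 7.74 in ad libitum dogs 2, 5, 6, 7 and 8 and 8.82, 9.16, 9.11 and 8.21 in control dogs 1, 3, 4 and 9. Dog 6 was lowest, and dog 7 stood beside the array labelled dog 9. Their median difference within batches 1, 3, 4 and 5 was -1.21, -1.55, -0.86 and -1.54. At the other times it was -0.07 at week 0, 0.22 at week 4, 0.33 at week 12 and -0.39 at week 24. The arrays of those times entered the same fit, with its shared spread and batch terms, so these values are a description too. None passed at weeks 0, 4 and 12, when 0%, 0.0132% and 0.00441% of all probe sets did, and 10 passed at week 24, when 5.46% did. The 66 that were higher had medians of 0.12, 0.35, 0.13 and 0.75 at weeks 0, 4, 12 and 24, and 25 of them passed at week 24.

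A measure of RNA quality is given beside these sets. The deposited value for the 3' end of the actin transcript minus that for its 5' end, which grows as RNA breaks or is copied short, was 1.35, 1.72, 1.77, 1.74 and 2.11 in ad libitum dogs 2, 5, 6, 7 and 8 and 1.80, 2.65, 3.12 and 1.98 in control dogs 1, 3, 4 and 9. Control dogs 3 and 4 were highest, and the groups overlapped in the rest. The difference was -0.65 (1.74 ± 0.270, SD, n = 5, against 2.39 ± 0.609, SD, n = 4; 2-sided exact permutation p = 0.0714, adjusted over 2 measures 0.143, where 0.00794 is the smallest p possible). The same measure for GAPDH differed by 0.02 (exact permutation p = 0.913). The mean of the 257 probe sets and the actin measure were compared on the 36 arrays of the other weeks. They had r = 0.505 and rho = 0.489, and r = 0.427 without the 2 farthest arrays. Within batches r ran from 0.126 to 0.902. For the higher set r was -0.387 and rho -0.351, and r was -0.327 without the 2 farthest arrays. Within batches it ran from -0.919 to -0.346. This is a description, since each dog recurs at several weeks and these arrays entered the fit that chose the sets. With the actin measure in the fit 2 probe sets passed, and the difference of AZGP1 was 4.60 (adjusted p = 0.0243). The part of RNA quality in the lower and the higher set beyond this was not tested.

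**Figure D4:**
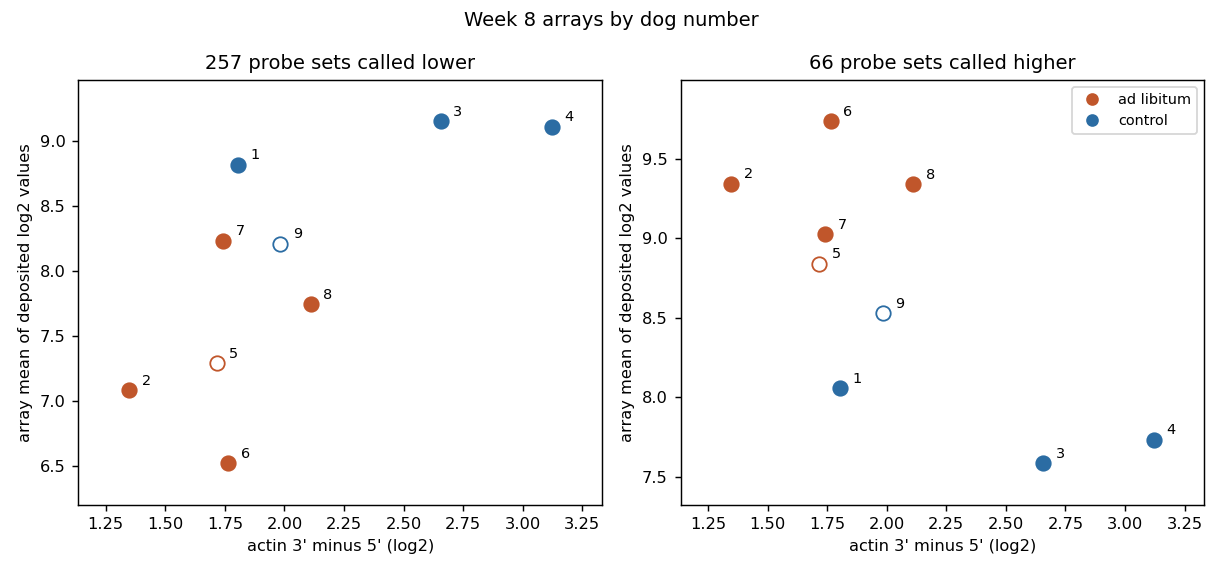
Mean of the deposited log2 values over the 257 probe sets called lower and the 66 called higher, per week-8 array, against the actin 3' minus 5' value of that array (log2); each circle is 1 array with its dog number, and open circles are the arrays labelled dogs 5 and 9. Control dogs 3 and 4, with the highest actin values, 2.65 and 3.12, have the highest means on the left and the lowest on the right.

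Genes of fat storage and use did not pass as groups. None of 17 genes of fatty acid synthesis, 23 of triglyceride synthesis and droplets, 9 of lipolysis, 18 of fatty acid oxidation, 33 of oxidative phosphorylation or 18 of cholesterol synthesis passed in either form at their brightest probe set. Their medians were 0.08, 0.14, 0.62, -0.01, -0.01 and 0.28. FASN, the fatty acid synthase, was at 14.03, 13.78, 12.16, 12.59 and 11.94 in ad libitum dogs 2, 5, 6, 7 and 8 and at 13.07, 13.67, 13.38 and 13.89 in the controls, a difference of -0.63 (SE 0.564, adjusted p = 0.482; -0.77, adjusted p = 0.627 without the 2 arrays). Dogs 6, 7 and 8 were below all controls and dog 2 above them. SCD, the stearoyl-CoA desaturase (0.05, SE 0.147), LPL, the lipase that takes up circulating triglyceride (-0.37, SE 0.357), PPARG, the master regulator of adipocytes (-0.17, SE 0.402), and ADIPOQ (-0.02, SE 0.199) had adjusted p of 0.839, 0.518, 0.803 and 0.949. The SCD value is from its brightest probe set, at 15.86 to 16.37, near the top of the scale, and its 3 probe sets reached 0.98 as labelled and 2.14 without the 2 arrays, none past the threshold.

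Further values in these lists and that of adipocyte transcription factors, chosen after they were seen, are given without a call. ELOVL6, the elongase of long fatty acids, stood at 2.09 as labelled (SE 1.23, adjusted p = 0.278) and at 4.64 without the 2 arrays (SE 1.13, adjusted p = 0.0744). As labelled, TKT (0.74, adjusted p = 0.104) and PGD (0.53, adjusted p = 0.142) of the same list were nearer to the threshold than ELOVL6. PPARGC1A, a coactivator of mitochondrial genes, stood at -2.12 (adjusted p = 0.0598), and at -2.22 without them (adjusted p = 0.159). DHCR7, the last step of cholesterol synthesis, stood at 1.90 (adjusted p = 0.0574) and 1.88 (adjusted p = 0.168), and FDPS, an earlier step, at 0.64 (adjusted p = 0.0711) and 0.58 (adjusted p = 0.248). The fatty acid dehydrogenase ACADM stood at -1.47 (adjusted p = 0.0784), and at -0.997 without them (adjusted p = 0.410). In the adipokine list, AZGP1 passed and the median of its 11 genes was 0.39.

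**Figure D5:**
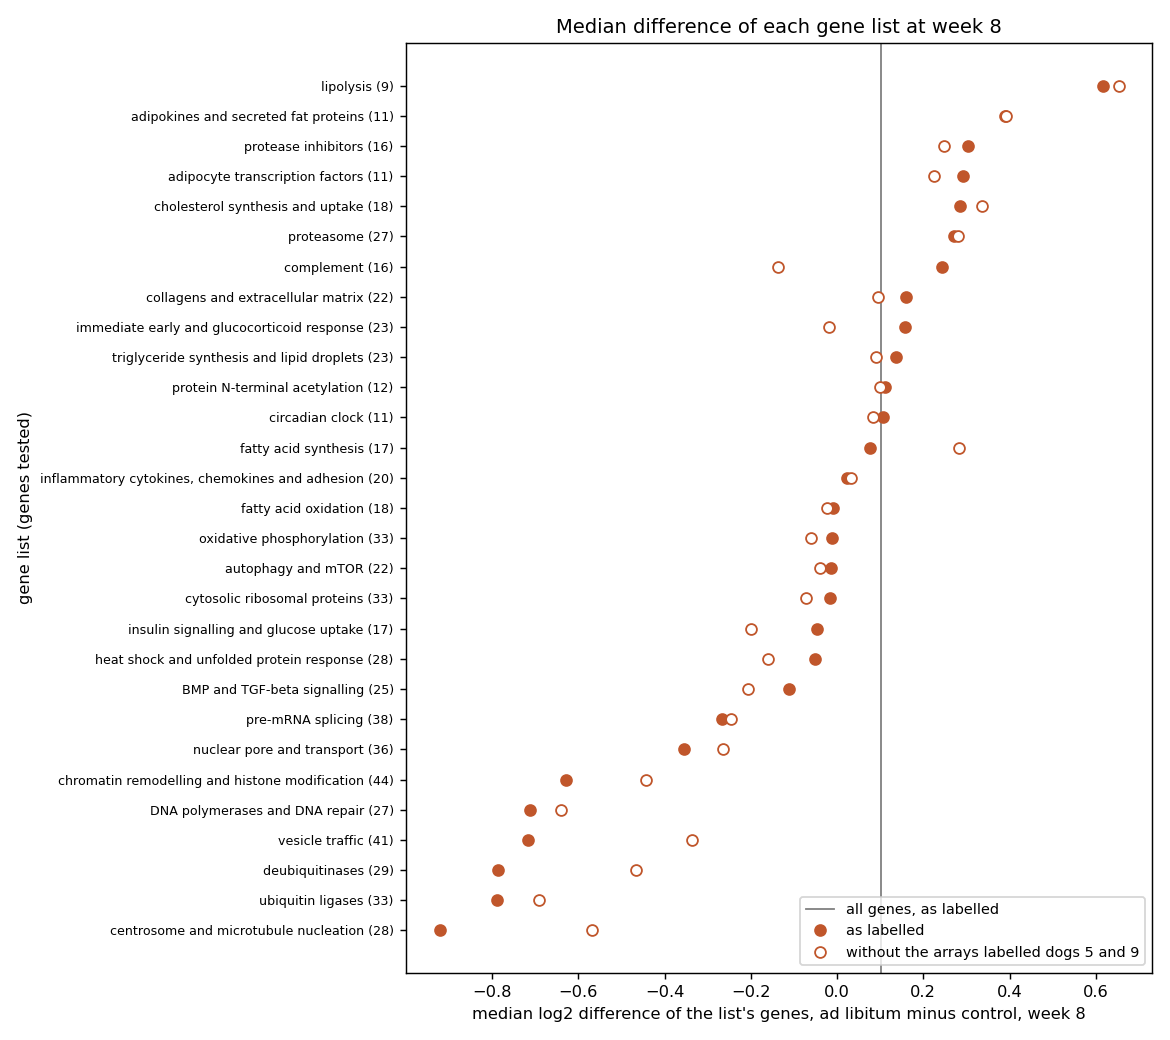
Median log2 difference at week 8 of the genes of each pathway list, ad libitum minus control, as labelled (filled) and without the arrays labelled dogs 5 and 9 (open); the number of genes tested stands beside each name and the vertical line is the median over all genes, 0.10. Centrosome genes lie lowest at -0.92 as labelled, and lipolysis highest at 0.62.

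Inflammation and the other cell types gave no gene past the threshold as labelled outside the epithelial lists. Of 20 cytokine, chemokine and adhesion genes none passed, and the median was 0.02. CCL2, a chemokine that draws monocytes, ran from 7.25 to 9.86 in ad libitum dogs and from 5.37 to 9.87 in controls, a difference of 0.74 (SE 0.897, adjusted p = 0.608). CD68, a lysosomal protein of macrophages, ran from 7.16 to 9.15 and from 6.28 to 9.02 (1.09, SE 0.665, adjusted p = 0.296; 0.32 without the 2 arrays). The mean over 18 macrophage markers was 7.54 to 8.70 in ad libitum dogs and 7.23 to 8.69 in controls. Of 16 complement genes and 28 heat shock and unfolded protein genes none passed. The median over 22 skeletal muscle markers was -0.94, with the 1 high control and 1 high ad libitum array given above.

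The change from week 0 did not differ between the groups as labelled for any probe set by limma's test (1966 at an unadjusted p under 0.05, smallest adjusted p = 0.230). Without the 2 arrays 1 passed (0.00441%), AZGP1. The week-8 difference was also set against the mean of the week-4 and week-12 differences. As labelled 3703 probe sets (16.3%) differed, 1295 upwards and 2408 downwards. Without the 2 arrays 0 passed by limma's test, with 5488 at an unadjusted p under 0.05 and a smallest adjusted p of 0.106.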

How the data were processed

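The values are those the authors deposited, on a scale read here as log2, 1 per probe set and array. The submitters' processing notes name GCRMA. Its version, the log base and any correction for batch are not stated in what was used here. They run from 0.42 to 17.51, with array medians from 3.60 to 3.83. Of 42924 probe sets that are not array controls, 22690 (52.9%) were above 4 on at least 4 of the 45 arrays and were tested. Of these, 16915 had 1 gene symbol in the platform's annotation, 271 several and 5504 none.

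All 45 arrays entered 1 fit with limma (3.58.1, with statmod 1.5.0, under R 4.3.3): a mean per group and week, a term for the labelled batch, and the dog as a random block. Week-8 differences come from this fit, so their spread is pooled over all weeks. P-values are limma's, adjusted by Benjamini and Hochberg over all probe sets tested, with a threshold of 0.05. The fit was tested on simulated data with independent noise, without effects of dog or batch and without mislabelled arrays, so that test does not cover these. No count or depth exists for arrays, so their number limits the precision. RNA quality was compared by a 2-sided exact permutation test.

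The members, the leaving out of the 2 arrays and the 42 gene lists (29 pathways, 13 cell types) were chosen with earlier results of these data known. A list is counted at each gene's brightest probe set. Genes were named by rule: up to 12 of each sign by size as labelled at the probe set with the largest difference, up to 10 of each sign among those past the threshold without the 2 arrays, list members that passed (up to 3 a list), and LEP, ADIPOQ, PPARG, FASN, SCD, LPL, CCL2 and CD68. Genes that passed only without the 2 arrays, further list members, the epithelial markers and the position of the 2 arrays were chosen after their values were seen. No sequence is printed.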

Additional observations from a re-analysis of the deposited data

Results flagged for a closer look

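The week-8 difference departed from the mean of the week-4 and week-12 differences for 3703 probe sets as labelled, and for none without the arrays labelled dogs 5 and 9. Among the named genes 41 were of this kind as labelled, with adjusted p between 0.0205 and 0.0378 by limma's test of that difference. These genes were named for their week-8 difference, which is a term of the contrast, so their values here are a description and no support. The genes higher at week 8 departed upwards, by 2.25 for BMP6, 2.26 for FAM118A, 1.99 for TMEM218, 1.93 for SMURF1, 1.46 for ADGRE5 and 0.97 for AKT1 (log2). The others departed downwards. For DNA repair and the ubiquitin system the values were -3.79 for REV3L, -2.42 for MSH6, -3.48 for USP25, -2.44 for USP34, -1.57 for USP24, -2.26 for MYCBP2 and -1.55 for TRIP12. For the centrosome they were -3.50 for TUBGCP5, -2.27 for PCM1, -2.16 for CEP192 and -1.07 for CKAP5. For chromatin and RNA they were -2.77 for ARID4B, -2.75 for BPTF, -1.52 for EMSY, -1.02 for SETD2, -3.13 for PRPF39, -2.59 for PRPF4B, -3.50 for SCAF11 and -1.06 for UTP20. For nuclear transport they were -1.69 for XPO1, -3.47 for XPO4 and -1.70 for TPR, a filament protein of the nuclear pore. For membrane traffic and autophagy they were -2.14 for TRIP11, -2.04 for ARFGEF1, -3.30 for VPS50, -3.37 for WASHC4, -1.40 for DOP1A, -2.67 for DENND4A, -1.77 for ATG2B and -2.12 for PIK3C3. The remaining ones were -3.85 for NAA15, -3.78 for EPRS1, -1.51 for HSF2, -2.995 for FAM135A and -2.88 for FAM214A.

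A single array stood far from its group in 12 of 156 checks (7.69%), where chance gives about 1 in 20. LOX, ACACA, C7, GPAM and the MATN2 probe set given here were named because they passed only without the 2 arrays, so the number is not read against chance. Within its group the ad libitum array labelled dog 5 was lowest for LEP (10.45), MATN2 (5.71), LOX (3.79), KDELR3 (10.41) and SCD (15.86), and the highest for ACACA (7.44). The array labelled control dog 9 was the highest of its group for AZGP1 (2.47), CSTA (4.68), C7 (8.97) and GPAM (4.62). Control dog 3 was highest for RPL6 (10.04), and control dog 4, whose array carried muscle transcripts, for XPO4 (9.98).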

How the results depend on the processing

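The number of probe sets past the threshold moved with most choices. All 323 kept their sign in every alternative that tested them, but mostly the same arrays chose them, so this is no support. Against 323 as labelled, the count was 50 without the arrays labelled dogs 5 and 9, 1437 without the arrays with muscle transcripts, 1 without the batch term, and 0 for the week-8 arrays alone with or without batch. It was 3 with no filter on low values, 487 above 5 on at least 4 arrays, 529 above 4 on at least 4 week-8 arrays, 214 after quantile normalization, 625 with arrays centred on their median, 1861 with array weights and 2 with the actin covariate. Leaving out a dog gave 0 to 2067, and leaving out 1 week-8 array, added after seeing the data, gave 0 (control dog 3 or 4, ad libitum dog 2 or 6), 1 (dog 8), 7 (dog 9), 18 (dog 5), 2224 (dog 1) or 2659 (dog 7). The 2 arrays left out together with the actin covariate, also added later, gave 2. The pathway genes past the threshold numbered 30, and 5 without the 2 arrays.

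For the change from week 0 the count was 0 as labelled, 1 without the 2 arrays and 1785 with array weights, and 0 to 1324 leaving out a dog. For week 8 against weeks 4 and 12 it was 3703 as labelled, 0 without the 2 arrays, without batch and with the actin covariate, 514 with no filter, and 0 to 8661 leaving out a dog. No paired analysis between the groups was possible because they hold different dogs. With no replicate block for the recurring dogs the counts were 325, 0 and 3627, and with the dog as a fixed block 0 and 0 for the latter 2 comparisons.

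The actin difference ran from -0.85 to -0.41 leaving out 1 array, with exact p under 0.05 without control dog 1 or 9 or ad libitum dog 8, and the GAPDH difference from -0.13 to 0.11, negative without control dog 4 (-0.13) or the array labelled dog 5 (-0.052). Of the named genes 4 changed sign, none past the threshold in any fit. ADIPOQ was positive without the 2 arrays (0.015), without muscle arrays (0.063), after quantile normalization (0.0093) or centring (0.061), without dog 9, 6 or 7 (0.0088, 0.035 and 0.032) and without their week-8 arrays (0.016, 0.020 and 0.030). PPARG was positive without the 2 arrays (0.26, and 0.24 with the actin covariate), without dog 9 or 6 (0.043 and 0.070) and without the week-8 array of dog 9 (0.063). SCD was negative without dog 1 or 8 (-0.027 and -0.021) or their week-8 arrays (-0.042 and -0.021), and CCL2 without dog 9 (-0.0047) or its week-8 array (-0.015). Leaving out a dog, ADIPOQ went down to -0.081, PPARG down to -0.39, SCD up to 0.13 and CCL2 up to 1.71. The causes were not tested. Array identity gave 7 of 9 arrays closest to their labelled dog with 50, 100 or 500 probe sets. Few arrays and signal near background limit the precision.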
